A study of Mus musculus with 21 samples.

Results

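The right ventricle of mice given polystyrene nanoplastics was compared with the right ventricle of control mice, over 6 of the 21 libraries of the series. All 6 mice were adult male wild-type animals, and for 8 weeks they received either the nanoplastics, plastic particles of nanometre size, or distilled water. Strain, exact age and dose are not known from the sources used here. Hearts were rinsed with cold phosphate-buffered saline and cut into 3 sections (atria, right ventricle, left ventricle), and a bulk library of polyadenylated RNA was made from each. The members are the right ventricular libraries of control mice 1, 2 and 3 and of nanoplastics mice 1, 3 and 4. The right ventricular library of nanoplastics mouse 2 was kept out because it holds 4662 counts, and it is used below only where stated. The title of the series concerns disturbed rhythm of human heart muscle cells, and the mouse ventricle addresses which transcripts differ in the intact heart.

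The right ventricle pumps blood through the lungs at low pressure, and its muscle cells obtain nearly all of their energy from the respiratory chain of mitochondria. The mitochondrial genome encodes a few core subunits of that chain and the RNAs of the mitochondrial ribosome, and nuclear genes encode the other subunits. The contracting unit is the sarcomere, whose myosin, actin and titin filaments are triggered by calcium released from the sarcoplasmic reticulum. Ventricular muscle under load is known to raise the natriuretic peptides Nppa and Nppb and the slow myosin Myh7, while loss of ion channel or gap junction transcripts is a known accompaniment of disturbed rhythm.

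The nanoplastics libraries were shallower than the control libraries. Control mice 1, 2 and 3 had 2042568, 1791758 and 1333133 counts, and nanoplastics mice 1, 3 and 4 had 523089, 813585 and 438053. The groups did not overlap, with means of 1722000 ± 359800 and 591600 ± 196900 (SD, n = 3 each; exact two-sided permutation test, p = 0.1, the smallest that 3 against 3 allows, and 0.23 adjusted over 23 library measures). Depth and treatment therefore cannot be told apart by design. A single count was worth 0.470, 0.524 and 0.675 CPM, the usual unit of gene levels scaled to library size, in the control libraries but 2.32, 1.34 and 2.47 CPM in the nanoplastics libraries. Genes with at least 1 count numbered 14374, 14275 and 13373 in controls and 10104, 11581 and 10565 with nanoplastics. After every library was thinned at random to 438053 counts the numbers were 10650, 10860 and 10680 against 9634, 9910 and 10560, so the groups remained separate. Of the 20960 genes in the table, 17356 had a count in these 6 libraries and 5201 passed the filter on low counts, which required about 9.32 CPM in at least 3 libraries. Of the 5201, 109 reached that level only through the control libraries and 10 only through the nanoplastics libraries. The ventricular label fitted the levels of Myl2 and Myl7. Myl2, the ventricular myosin light chain, had 6795 to 15480 CPM. Myl7, its atrial counterpart, had 6, 6 and 8 counts in controls and 2, 1 and 15 with nanoplastics. By library total, Myl7 had 2.937, 3.349 and 6.001 CPM against 3.823, 1.229 and 34.24 CPM, so nanoplastics mouse 4 stood above the other libraries. Myl3, another ventricular marker, had 8876, 10720 and 9418 CPM by library total in controls and 5362, 8266 and 7460 CPM with nanoplastics.

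In the nanoplastics right ventricle, both mitochondrial ribosomal RNAs and some transcripts of respiratory chain subunits, cytosolic ribosomal proteins and sarcomere proteins were higher. A small set that includes Neat1, prefoldin subunits, Atp1b1 and Tcap was lower. In edgeR's quasi-likelihood test with Benjamini-Hochberg adjustment, 68 of 5201 genes (1.31%) passed an adjusted p of 0.05, of which 58 (1.12%) were higher and 10 (0.192%) lower. The 58 comprised 20 cytosolic ribosomal protein genes, 4 mitochondrially encoded genes, 11 pseudogene loci, 4 other predicted genes and 19 other genes. Among the called genes, Lpar6 and Tmem47 (lower) and Rps4x-ps (higher) passed the count filter only through the group where they were high. The groups did not overlap for any of the 68, against 10.6% of all genes tested that were separate upward and 10.7% downward. The median log2 change over all genes was -0.02. With scaling by library totals only, all changes shifted downward (median -0.30) and the split turned to 9 genes higher and 142 lower, with 19 of the 68 still called. All values below are scaled by TMM, the trimmed mean of M-values, and each log2 change is of nanoplastics over control with its standard error (SE). In bulk tissue, more cells of a type and more RNA per cell cannot be told apart.

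The number of calls rested on single libraries. Without nanoplastics mouse 3, the deepest of its group, 326 genes were called, 222 higher and 104 lower, and these included 64 of the 68. Without nanoplastics mouse 1 or mouse 4 it was 7 genes each. Without control mouse 1, 2 or 3 it was 1, 4 and 0 genes. The mitochondrial ribosomal RNA mt-Rnr1 was called in each of these 6 fits except the one without control mouse 3 (adjusted p = 0.101 there). Without control mouse 3, 638 genes had an unadjusted p under 0.05, against 758 with it. All 68 genes kept their sign in each of 22 alternative fits that gave them a value, and 34 of them were called in at least 11. These fits reuse the libraries that picked the 68, whose groups were all separate, so the kept sign is no independent support.

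**Figure D1:**
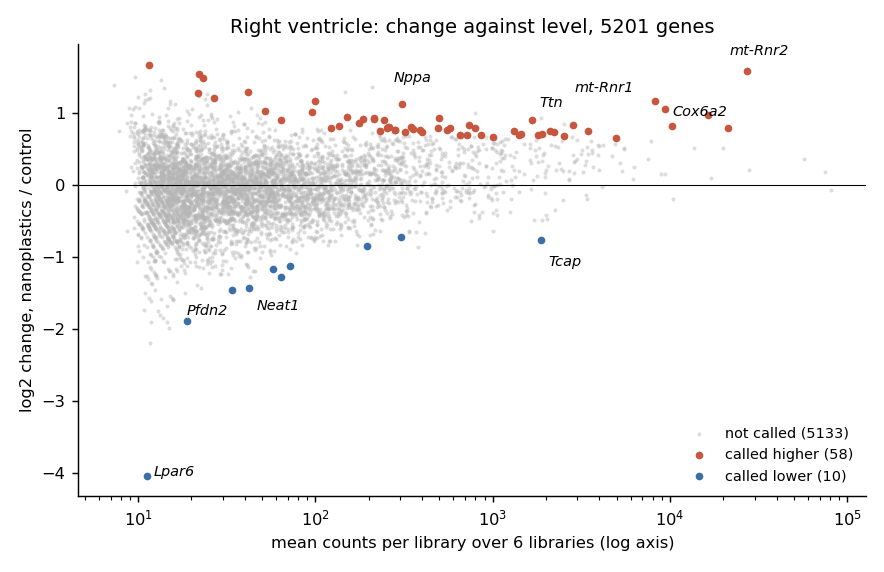
Log2 change (nanoplastics over control) of each of 5201 genes against its mean counts per library on a log axis, right ventricle, 3 libraries a group. Red points are the 58 genes called higher, blue points the 10 called lower and grey points the rest; most red points lie at the right, among abundant genes, and Lpar6 lies lowest at -4.04.

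Both RNAs of the mitochondrial ribosome rose in these libraries of polyadenylated RNA. Capture was on oligo-dT beads, and the total amount of either RNA in the tissue was not measured. The small-subunit RNA mt-Rnr1 had 5713, 5548 and 5389 CPM in control mice 1, 2 and 3, and 16070, 9699 and 11610 CPM in nanoplastics mice 1, 3 and 4. The control values lay close together and every nanoplastics library was above them (log2 change 1.17, SE 0.18, adjusted p = 0.003). The large-subunit RNA mt-Rnr2 had 16290, 16640 and 15620 CPM in controls and 77390, 36620 and 31180 CPM with nanoplastics (1.58, SE 0.27, adjusted p = 0.0236). Mouse 1 stood highest for both RNAs, and without it the change of mt-Rnr2 was 1.06 (adjusted p = 0.000845), while without control mouse 1 or 3 its adjusted p was 0.0669 and 0.178. Together these RNAs made up 2.29%, 2.36% and 2.33% of the counts of the control libraries and 7.69%, 4.25% and 3.96% of the nanoplastics libraries.

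Of the 13 mitochondrially encoded mRNAs, 8 passed the filter and 2 rose, against 1.12% of all genes. The other 5 (mt-Nd4l, mt-Co2, mt-Co3, mt-Atp6 and mt-Atp8) had too few counts to be tested, at 0 to 13 per library. For comparison, mt-Co1 had 18187 to 166374 counts, and the reason for this gap was not tested. The complex I subunit mt-Nd4 had 11450, 12390 and 10570 CPM in controls and 16820, 22310 and 28150 CPM with nanoplastics (log2 change 0.97, SE 0.18, adjusted p = 0.0153). The complex I subunit mt-Nd2 had 16180, 16010 and 13720 CPM against 23950, 27200 and 28390 CPM (0.79, SE 0.17, adjusted p = 0.0279). The other 6 did not pass the test. Among them were mt-Co1, the catalytic subunit of cytochrome oxidase, at -0.06 (SE 0.19), and mt-Cytb, of complex III, at 0.18 (SE 0.17). The median over the 8 was 0.28. The summed share of mitochondrially encoded RNA overlapped between the groups, with 27.4%, 26.8% and 24.5% of counts in controls and 30.4%, 31.0% and 25.4% with nanoplastics.

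Some nuclear genes of the respiratory chain also rose. Of the 42 tested genes of complexes II to V, 6 rose and none fell, with a median of 0.42, beside 1.12% higher, 0.192% lower and a median of -0.02 over all genes. The largest was Cox6a2, the heart and skeletal muscle form of a cytochrome oxidase subunit, with 6831, 5811 and 7023 CPM in controls and 15620, 9511 and 15730 CPM with nanoplastics (1.05, SE 0.19, adjusted p = 0.0118). Nanoplastics mouse 3 lay nearest the controls and still above each of them. Its widely expressed counterpart Cox6a1 had a log2 change of 0.41 (SE 0.18, adjusted p = 0.266). Cox8b, the muscle form of another subunit, had 2812, 2509 and 2252 CPM against 5024, 3604 and 4059 CPM (0.74, SE 0.17, adjusted p = 0.031), while its counterpart Cox8a had 0.02 (SE 0.17, adjusted p = 0.981). The counterparts Cox6a1 and Cox8a are named here with their values known, and the difference between forms was not tested. Cox7a2, a widely expressed form, rose by 0.67, Cox6b1 by 0.66, and the ATP synthase parts Atp5e and Atp5mpl by 0.83 and 0.70. In the Cox7a pair the muscle form Cox7a1, also named with its value known, was not called (0.44, SE 0.17, adjusted p = 0.182).

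Of the 37 nuclear complex I genes, 3 rose and none fell, with a median of 0.32, beside the same 1.12%, 0.192% and -0.02 over all genes. They were the accessory subunits Ndufa3 (0.75, SE 0.18), Ndufv3 (0.73, SE 0.18) and Ndufb4 (0.73, SE 0.19). Ndufa3 had 1708, 1500 and 1480 CPM in controls and 3031, 1942 and 2914 CPM with nanoplastics, and mouse 3 was again the lowest of the nanoplastics mice. The catalytic complex II subunit Sdha was at 0.00 (SE 0.20). With all mitochondrially encoded and ribosomal protein genes taken out before the fit, an alternative chosen after the data were seen, 2 genes of complexes II to V and none of complex I were called.

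The cytosolic ribosomal proteins, which build the ribosome outside mitochondria, were the most frequent class. Of 79 genes 75 were tested: 20 rose, none fell, and 72 had a positive change, with a median of 0.62 against -0.02 over all genes. In 61 of the 75 every nanoplastics library was above every control library. Over all genes tested, 1.12% were called higher, 0.192% were called lower and 10.6% were separate upward. The summed level of the list was 43640, 44210 and 37830 CPM in controls and 69410, 53430 and 60500 CPM with nanoplastics. Rps28 had 206.2, 163.5 and 148.6 CPM against 401.8, 249.5 and 330.7 CPM (0.91, SE 0.20, adjusted p = 0.0279). Rpl39 had 158.8, 160.9 and 131.0 CPM against 348.4, 241.4 and 269.0 CPM (0.92, SE 0.19, adjusted p = 0.0277). The 3 with a negative change, none past the test, were Rpl4 (-0.02), Rpl8 (-0.10) and Rpl9 (-0.07). The count depended on the scaling and on single libraries: no ribosomal protein gene was called with library totals alone, where the median was 0.34 beside -0.30 for all genes, nor without any 1 control mouse, nor without nanoplastics mouse 1. In those fits 33 (library totals) to 59 of them were higher at an unadjusted p under 0.05, beside 64 in the fit described above and 7.92% of all genes there. Without nanoplastics mouse 4 it was 2 genes, and without mouse 3 it was 51. Of 30 translation initiation and elongation factors, which work on the same ribosomes, edgeR called none, and their median was 0.09. At an unadjusted p under 0.05, 3 factors were higher and 5 lower, beside 7.92% and 6.65% of all genes. DESeq2, which gave an adjusted p to 1381 genes only, called 1 factor, beside 12.7% of those 1381 genes.

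Most of the genes that rose were short and abundant. When the 5201 genes were divided into 5 equal bins by mean counts, the top bin, from 111 to 80617 mean counts, held 48 of the 58 genes called higher, 4.62% of that bin, and each other bin held 1 to 4. The median SE of the log2 change was 0.45 in the lowest bin and 0.19 in the highest. By annotated transcript length, the shortest bin (57 to 1454 nt) held 46 genes called higher (4.46%) and the longest (4622 to 106824 nt) held 3, with median changes of 0.20 and -0.06. The median annotated length of the gene behind a count was 1698, 1733 and 1791 nt in the control libraries and 1473, 1596 and 1521 nt in the nanoplastics libraries. No length of RNA was measured, and the part of length in the calls was not tested beyond removing its trend, which left 52 calls, 26 of them among the 68, and 16 ribosomal protein genes. Among the pseudogene loci, Rps4x-ps had 14, 12 and 10 counts in controls and 9, 13 and 11 with nanoplastics, which is 6.58, 6.29 and 6.75 CPM against 20.9, 17.4 and 27.1 CPM. Reads of such loci cannot be told from those of the parent gene, and Rps4x-ps passed the count filter only through the nanoplastics libraries.

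**Figure D2:**
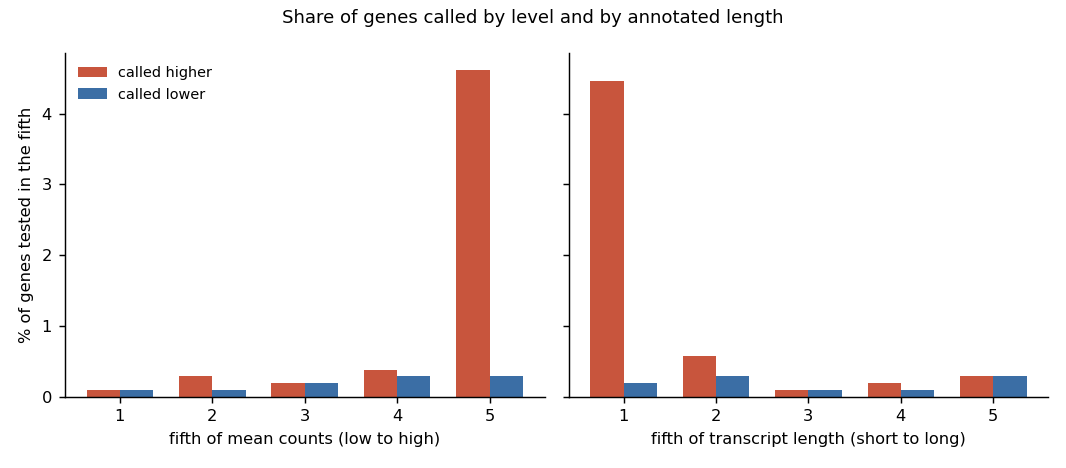
Share of the tested genes called higher (red) or lower (blue) in 5 equal bins of mean counts, left, and of annotated transcript length, right. The bars for genes called higher reach 4.62% in the most abundant bin and 4.46% in the shortest bin and stay under 0.6% elsewhere.

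**Figure D3:**
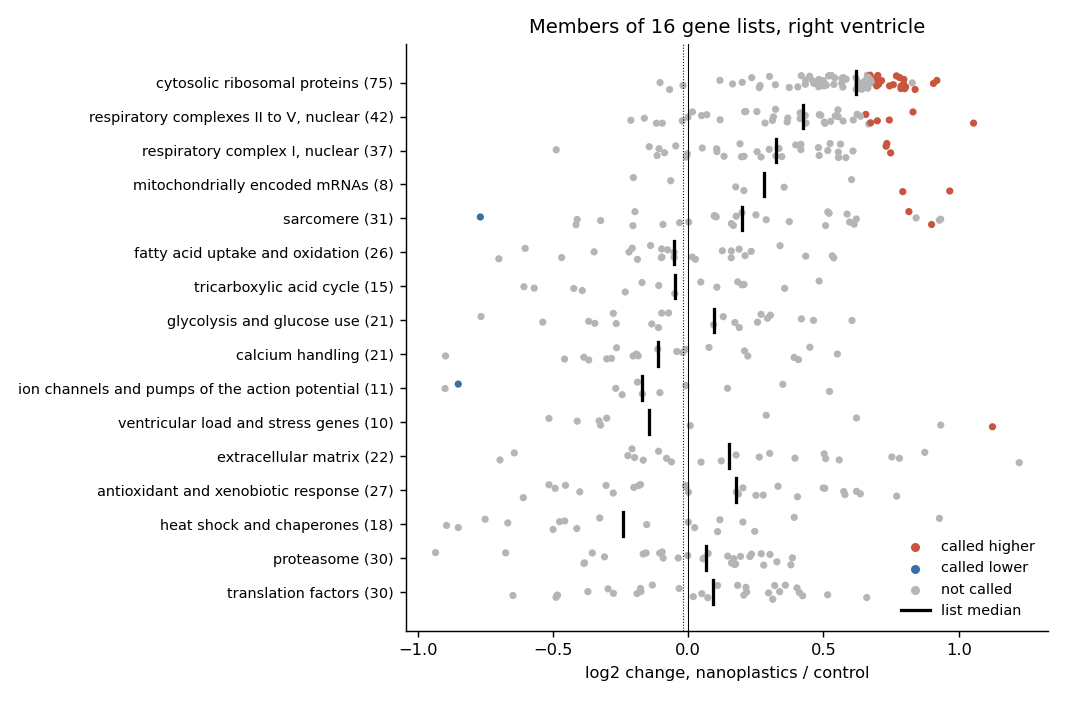
Log2 change (nanoplastics over control) of each tested member of 16 gene lists, with the number tested in brackets; red members were called higher, blue lower, and grey not called. Black bars are list medians, which run from -0.24 for heat shock genes to 0.62 for cytosolic ribosomal proteins, and the dotted line is the median of all genes, -0.02.

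Of 31 sarcomere genes, 2 rose and 1 fell, with a median of 0.20, beside 1.12% higher, 0.192% lower and a median of -0.02 over all genes. Titin (Ttn), the giant elastic filament, had 1141, 1273 and 1247 CPM in controls and 2550, 1466 and 2830 CPM with nanoplastics (0.90, SE 0.20, adjusted p = 0.0287). The ventricular light chain Myl2 had 7330, 6795 and 8779 CPM against 15480, 9821 and 15030 CPM (0.82, SE 0.18, adjusted p = 0.0289). In both genes nanoplastics mice 1 and 4 stood well above the controls and mouse 3 just above them. Tcap, which caps titin at the Z-disc, fell, with 2023, 1767 and 1314 CPM in controls and 887, 1191 and 911 CPM with nanoplastics (-0.77, SE 0.19, adjusted p = 0.0322). The slow myosin Myh7 had 29.1, 29.9 and 48.0 CPM against 69.7, 42.9 and 98.7 CPM and overlapped (0.93, SE 0.28, adjusted p = 0.0927). The fast myosin Myh6 had 1800, 1682 and 2232 CPM against 2922, 1747 and 5597 CPM (0.84, SE 0.39, adjusted p = 0.392), with mouse 4 alone far above the rest. Troponin T (Tnnt2) was at 0.10 (SE 0.17) and the essential light chain Myl3 at -0.20 (SE 0.17), neither past the test.

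**Figure D4:**
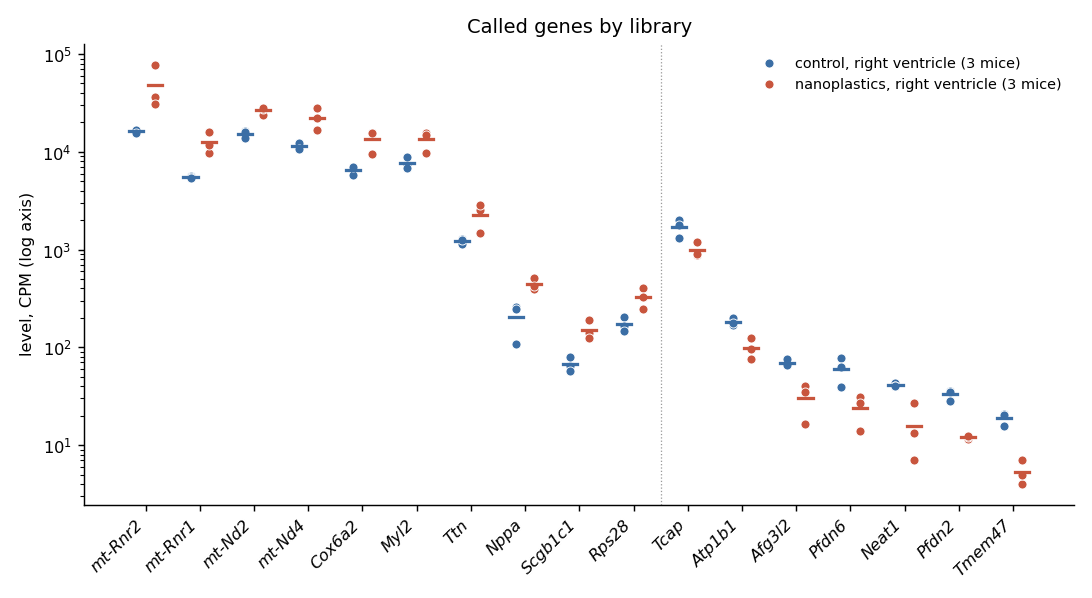
Level in CPM (log axis) of 17 called genes in each right ventricular library, blue for the 3 control mice and red for the 3 nanoplastics mice, with horizontal bars at the group means. Left of the dotted line every red point lies above the blue points, and right of it every red point lies below them.

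Of the natriuretic peptide genes, Nppa rose and Nppb did not pass the test. Both peptides are hormones that lower blood pressure and volume, and their genes are neighbours on mouse chromosome 4. Nppa, the atrial peptide, had 256.0, 107.5 and 248.5 CPM in controls and 394.8, 506.9 and 426.9 CPM with nanoplastics (1.12, SE 0.25, adjusted p = 0.0322). The groups did not overlap, and control mouse 2 lay lowest. Nppb, the B-type peptide, had 724.3, 451.3 and 573.4 CPM against 573.7, 823.5 and 345.5 CPM (0.01, SE 0.24, adjusted p = 0.993), and its sign changed with the processing. The difference between the pair was not tested, and no single library could be left out without losing the call of Nppa (adjusted p 0.0569 to 0.19). The atrial markers Myl7, Myl4 and Sln had counts of 15, 9 and 20 in nanoplastics mouse 4, at most 2 in mice 1 and 3, and 2 to 10 in the control libraries. By library total, these markers had 34.24, 20.55 and 45.66 CPM in mouse 4. They had 1.229 to 3.823 CPM in mice 1 and 3 and 1.5 to 6.001 CPM in controls. Their part in the Nppa result was not tested.

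The 200 bases before the annotated start of each natriuretic gene are shown because they hold the letters that heart transcription factors are known to read; they come from RefSeq (GRCm38.p6), and capitals mark matches to GATAA or its reverse TTATC (GATA factors), AAGTG or its reverse CACTT (the core read by Nkx2-5) and TATAAA or its reverse TTTATA (the TATA box).
Nppa, chr4:148000522-148000721, plus strand: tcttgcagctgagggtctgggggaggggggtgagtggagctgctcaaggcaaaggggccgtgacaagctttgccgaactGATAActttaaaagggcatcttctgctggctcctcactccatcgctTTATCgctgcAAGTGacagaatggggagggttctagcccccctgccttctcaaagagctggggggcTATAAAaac
Nppb, chr4:147985700-147985899, plus strand: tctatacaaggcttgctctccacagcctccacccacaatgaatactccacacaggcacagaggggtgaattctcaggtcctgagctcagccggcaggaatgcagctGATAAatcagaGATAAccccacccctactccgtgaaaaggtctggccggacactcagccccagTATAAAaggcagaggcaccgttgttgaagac
The Nppa stretch has GATAA 121 bases before the start and, on the other strand, 75 before, with AAGTG at 65 and TATAAA at 9. The Nppb stretch has GATAA at 94 and 83 bases before the start and TATAAA at 31, and no AAGTG in this window. Of 32851 RefSeq promoter stretches of the same length, 18.1% hold GATAA, 34.0% AAGTG and 9.96% TATAAA on either strand. These matches are a description of letters, and binding was not measured.

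Among other genes of load and stress none was called. Of the 18 listed, 10 were tested and Nppa alone passed, beside 1.12% of all genes called higher. At an unadjusted p under 0.05, 3 were higher (Nppa among them), beside 7.92% of all genes, and the list median was -0.15. Ankrd1, a stretch-responsive nuclear and sarcomeric protein, had 1688, 1623 and 1949 CPM against 613.2, 2293 and 1022 CPM (-0.41, SE 0.49). Skeletal actin (Acta1) was at -0.32 (SE 0.24).

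Genes of calcium handling and rhythm were mostly not called. None of the 21 tested calcium handling genes passed with edgeR and 2 passed with DESeq2, both higher; 3 were higher and 0 lower at an unadjusted p under 0.05, and the median was -0.11. Over all genes, 7.92% were higher and 6.65% lower at that unadjusted p. DESeq2 called 12.7% of the 1381 genes it gave an adjusted p. The calcium release channel Ryr2 had 154.1, 147.3 and 148.6 CPM in controls and 190.5, 146.2 and 335.6 CPM with nanoplastics (0.55, SE 0.23, adjusted p = 0.231), and mouse 4 alone lay far above. The calcium pump Atp2a2 was at 0.41 (SE 0.23), its inhibitor phospholamban (Pln) at 0.08 (SE 0.17) and the kinase Camk2d at -0.46 (SE 0.26). Of 25 ion channel and pump genes 11 were tested, and 1 fell, beside 0.192% of all genes. This was Atp1b1, the beta subunit of the sodium pump that restores the ion gradients after each beat, with 197.8, 168.8 and 178.3 CPM against 76.7, 123.4 and 96.2 CPM (-0.85, SE 0.21, adjusted p = 0.0333). Every nanoplastics library lay below every control library. The gap junction protein Gja1 had 123.1, 136.3 and 164.8 CPM against 90.6, 100.6 and 88.8 CPM; the groups did not overlap, but the test was not passed (-0.58, SE 0.21, adjusted p = 0.146). The calcium channel Cacna1c was at -0.20 (SE 0.37) and did not pass. The potassium channels Kcnq1, Kcnh2 and Kcnj2 did not pass the count filter, so changes in them were not detectable at this depth.

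The genes that fell were fewer and spread over the range of mean counts. From the lowest to the highest of the 5 bins, 1, 1, 2, 3 and 3 genes were called lower. Lpar6, a receptor for lysophosphatidic acid, had 23, 26 and 17 counts in controls and 0, 1 and 0 with nanoplastics. Over the groups this is a rate ratio of 0.0529 with an exact 95% interval of 0.00132 to 0.305, which covers counting error only (fitted log2 change -4.04, adjusted p = 0.0279). Tmem47, a junction-associated membrane protein, had 44, 39 and 23 counts against 3, 3 and 2 (-1.89, SE 0.46, adjusted p = 0.0322). Both passed the count filter only through the control libraries. Neat1, the long noncoding RNA that scaffolds nuclear paraspeckles, had 43.2, 40.4 and 40.5 CPM in controls and 6.97, 13.4 and 27.1 CPM with nanoplastics (-1.43, SE 0.34, adjusted p = 0.031). Controls lay close together, and the nanoplastics libraries, at 3, 10 and 11 counts, spread widely below them.

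Of the 6 subunits of prefoldin, the chaperone that hands new actin and tubulin to the folding machinery, 2 fell, beside 0.192% of all genes. Pfdn2 had 36.2, 34.6 and 28.4 CPM in controls and 11.6, 12.1 and 12.3 CPM with nanoplastics (-1.46, SE 0.34, adjusted p = 0.031). In counts this was 77, 66 and 42 against only 5, 9 and 5, so the close nanoplastics values carry wide counting error. Pfdn6 had 78.0, 63.4 and 39.2 CPM against 13.9, 30.9 and 27.1 CPM (-1.28, SE 0.31, adjusted p = 0.0333), or 166, 121 and 58 counts against 6, 23 and 11. The other 4 subunits, named with their values known, did not pass: Pfdn1 was at 0.37, Pfdn4 at 0.15, Pfdn5 at 0.51 and Vbp1 at -0.31. Afg3l2, a protease of the inner mitochondrial membrane, had 67.2, 66.0 and 75.7 CPM against 16.3, 40.2 and 34.6 CPM (-1.13, SE 0.27, adjusted p = 0.031). Its counts were 143, 126 and 112 against 7, 30 and 14. Oaz2, which holds back polyamine synthesis, fell by 1.17 and the tetraspanin Tspan3 fell by 0.72 on the log2 scale, the latter called in 5 of 22 alternatives.

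Several rising genes belonged to no list of muscle or metabolism. The secretoglobin Scgb1c1 had 63.9, 57.7 and 79.7 CPM in controls and 190.5, 139.5 and 123.4 CPM with nanoplastics (1.17, SE 0.21, adjusted p = 0.0118), a call made in 16 of 22 alternatives. The airway secretoglobin Scgb1a1 had no count in the control libraries and 0, 8 and 23 counts with nanoplastics, Scgb3a2 had 0, 1 and 3, and their part in the Scgb1c1 result was not tested. Cytl1, a secreted protein listed here as a marker of endocardium, had 38, 18 and 22 counts in controls and 22, 20 and 19 with nanoplastics, which is 17.8, 9.4 and 14.9 CPM against 51.1, 26.8 and 46.9 CPM (1.49, SE 0.33, adjusted p = 0.0279). It was the only tested gene of its 6-gene marker list. Csnk2b, the regulatory subunit of casein kinase 2, rose by 1.30, the nuclear matrix protein Matr3 by 1.28 and the centromere protein Cenpf by 1.02. In counts, Matr3 had 28, 30 and 19 in controls and 11, 27 and 16 with nanoplastics, so it was higher as a share of its library and not in counts.

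Genes of injury pathways were not called by edgeR at this depth. The edgeR test called none of 27 antioxidant and xenobiotic genes (median 0.18), of which 5 were higher and 1 lower at an unadjusted p under 0.05, and DESeq2 called 2. Over all genes 7.92% were higher and 6.65% lower at that unadjusted p, and DESeq2 called 12.7% of the 1381 genes it gave an adjusted p. The edgeR test called none of 18 heat shock genes (median -0.24; 0 higher and 3 lower at the unadjusted p), where DESeq2 called 2 lower. It called none of 22 extracellular matrix genes (median 0.15; 4 higher and 2 lower), none of 30 proteasome genes (median 0.07; 2 and 2) and none of 6 p53 targets (median -0.27; 0 and 1), and DESeq2 called none of these either. Collagen Col3a1 was at -0.22 (SE 0.34) and the cell-cycle inhibitor Cdkn1a at -0.23 (SE 0.39). Col1a1, Tgfb1 and Hmox1 had too few counts to be tested. None of 26 fatty acid, 21 glycolysis or 15 tricarboxylic acid cycle genes was called by edgeR, with medians of -0.05, 0.09 and -0.05. At the unadjusted p, 3, 1 and 4 of them were lower and 1, 1 and 0 higher, and DESeq2 called 2, 0 and 1. Ppara, a nuclear receptor that drives fatty acid oxidation genes, had 29, 22 and 23 counts against 1, 5 and 1 (-1.59, SE 0.52, adjusted p = 0.113), and its muscle coregulator Perm1 was at -0.97 (SE 0.32, adjusted p = 0.11); neither passed.

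Markers of other cell types showed few calls. None of 11 fibroblast, 13 endothelial, 10 macrophage or 8 smooth muscle and pericyte markers was called by edgeR. At an unadjusted p under 0.05, 3 fibroblast markers were higher and 1 smooth muscle marker lower, beside 7.92% and 6.65% of all genes. DESeq2 called only 1 lower member of the smooth muscle and pericyte list, beside 12.7% of the 1381 genes it gave an adjusted p. The summed smooth muscle and pericyte level was lower in every nanoplastics library, at 1119, 1037 and 1048 CPM in controls and 706.1, 883.8 and 913.0 CPM with nanoplastics. Most of that sum was Des, which heart muscle also makes, and the pericyte gene Rgs5, at -0.86 (SE 0.24, adjusted p = 0.0889), while the median of the 8 tested members was -0.12. The erythroid sum was 457.0, 1570 and 628.8 CPM in controls and 1015, 1593 and 2956 CPM with nanoplastics. Control mouse 2 alone exceeded a nanoplastics library. All 5 tested erythroid markers had a positive change, with a median of 1.00, and none was called by edgeR or DESeq2 with all 6 libraries, nor at an unadjusted p under 0.05. Without control mouse 2, the hemoglobin genes Hbb-bs and Hbb-bt were among the 4 genes called, all higher. The part of these cell type markers in the other results was not tested.

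The left ventricle of the same 6 mice gave the same direction with fewer calls. There 2 of 5843 genes (0.0342%) were called, Ttn higher (1 gene, 0.0171%) and Neat1 lower (1 gene, 0.0171%). Of the 58 genes that rose in the right ventricle, 57 were positive in the left, beside 47.3% of all genes there. In the left ventricle, 40 of the 58 were higher at an unadjusted edgeR p under 0.05. Of all 5843 genes there, 741 had such a p in either direction. The median change of the 58 was 0.80 in the right and 0.46 in the left ventricle. All 10 genes that fell on the right were negative on the left, with medians of -1.23 and -0.64. Sections of a mouse share the animal, so this is no independent support. The depth of the left ventricular libraries is not given here, and it need not follow that of the right ventricular libraries. Without control mouse 1 no gene was called in the left ventricle (599 had an unadjusted p under 0.05), without control mouse 3 it was 16, without nanoplastics mouse 3 it was 30, without nanoplastics mouse 4 it was 3, and without control mouse 2 or nanoplastics mouse 1 it was 1 each. Ttn had 786.2, 984.3 and 1163 CPM in left ventricles of controls and 1519, 1595 and 2090 CPM with nanoplastics (0.83, SE 0.17, adjusted p = 0.0429), a call lost without control mouse 1 (0.126) or 2 (0.359) or nanoplastics mouse 1 (0.102) or 4 (0.121). Neat1 had 42.9, 31.0 and 22.9 CPM against 5.44, 6.16 and 14.5 CPM (-2.07, SE 0.34, adjusted p = 0.00349), a call lost without control mouse 1 (0.0521) or nanoplastics mouse 1 (0.122).

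**Figure D5:**
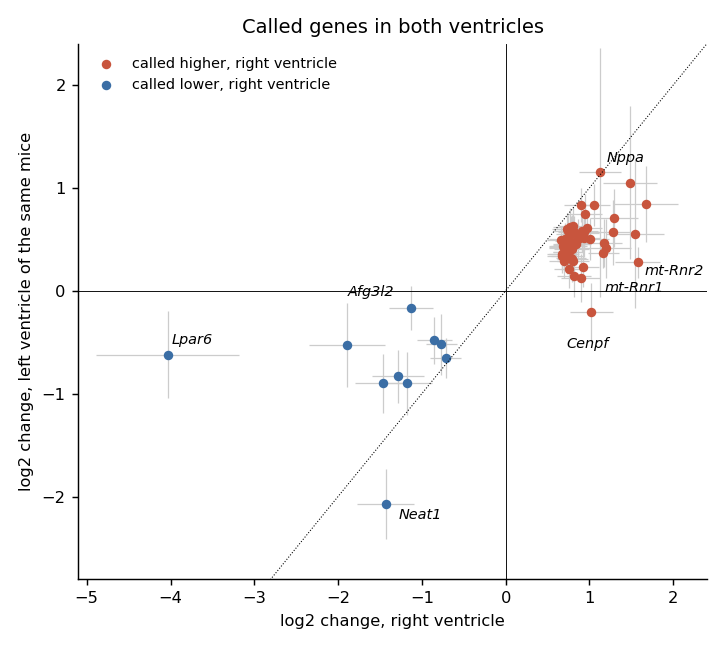
Log2 change (nanoplastics over control) in the left ventricle against that in the right ventricle of the same mice for the 68 genes called in the right, red for those called higher and blue for those called lower, with bars of 1 SE. All but Cenpf lie on the same side of 0 in both ventricles, and Lpar6 and mt-Rnr2 lie far from the dotted line of equal change.

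The difference between the ventricles was tested as an interaction with the mouse as a block over the 12 ventricular libraries, and 1 of 6228 genes (0.0161%) passed. This was mt-Rnr1, whose left ventricular levels were 6574, 5199 and 6097 CPM in controls and 8286, 7574 and 7187 CPM with nanoplastics. Its change was 1.17 in the right and 0.37 in the left ventricle, and the interaction was 0.76 (SE 0.15, adjusted p = 0.0208). This call was lost without control mouse 1 (adjusted p = 0.0501; no gene passed, 338 had an unadjusted p under 0.05) and without nanoplastics mouse 1 (0.836) or mouse 4 (0.226). Without control mouse 3, 10 genes passed, and without nanoplastics mouse 3 it was 3. The larger interaction of mt-Rnr2, 1.15, had an SE of 0.43 and did not pass (adjusted p = 0.962). That of Afg3l2, at -0.98, did not pass either (adjusted p = 0.485), although its left ventricular change was -0.17. For the other 67 genes called in the right ventricle, a difference from the left was not shown.

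The right ventricular library of nanoplastics mouse 2 allowed a reading of the 7 called genes with at least 20 counts there. By library total, mt-Rnr1 had 40 counts or 8580 CPM (Wilson 95% interval 6307 to 11660), above the 5908 to 5985 CPM of the controls, and mt-Rnr2 had 117 counts or 25100 CPM (20980 to 29990), above 16980 to 17720 CPM. The intervals of Cox6a2, mt-Nd4, mt-Nd2, Myl2 and Cox6b1 met the range of the controls. Ribosomal protein genes held 4.25% of its counts, inside the 4.20% to 4.71% of controls, while the other nanoplastics libraries had 4.90% to 5.71%. Its median annotated length per count was 1825 nt, above the 1698 to 1791 nt of controls, while the other nanoplastics libraries lay below them. Its share of annotated pseudogenes, 1.18%, was above the 0.975% to 1.11% of controls. With this library in the fit, 39 of 4489 genes (0.869%) were called, 27 higher and 12 lower, 23 of them among the 68. In that edgeR fit mt-Rnr1 was at 0.94 (adjusted p = 0.422) and Nppa at 1.08 (adjusted p = 0.00857). The library of mouse 2 held 0 counts of Nppa, so the adjusted p of Nppa is no sign of a rise in that mouse.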

How the data were processed

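Counts per gene symbol were used as the authors deposited them, whole numbers in a single table for all 21 libraries, without normalization. Per the labels' protocols, RNA from TRIZOL extracts was captured on oligo-dT beads, barcoded by well at the 5' end during reverse transcription, pooled, amplified and sequenced on an Illumina NovaSeq instrument. STAR is named, without a version, per the submitters' processing notes. No source used here names the genome build, annotation, counting program, strandedness or any counting of molecular identifiers, so counting intervals cover counting error only.

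Columns were matched to samples by library name. Mice are separate animals per the labels. In R 4.3.3, edgeR 4.0.16 (filterByExpr, TMM, robust quasi-likelihood test, Benjamini-Hochberg adjustment over 5201 genes, threshold 0.05) compared 3 with 3 libraries; totals ran from 438053 to 2042568 counts and the common biological coefficient of variation was 0.155. Levels of genes and summed levels of lists are CPM scaled by TMM over the tested genes, and shares of counts and the values of mouse 2 are by library total. The SE is the log2 change divided by the root of F. DESeq2 1.42.0, limma 3.58.1 (voom), other scalings, filters, thinning, left-out libraries, the replicate block and removal of a loess length trend were alternatives. Lengths and gene types came from GENCODE M21 and promoters from RefSeq. The steps were tested on simulated data. No pair of libraries was identical. DESeq2 left most genes without an adjusted p, and these enter no count of lost calls.

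The members and the 43 gene lists (863 genes) were chosen with earlier results of these data known. Named genes were the 12 called genes per direction with the largest change at a mean of at least 10 counts, without predicted genes named only by number, 4 or fewer called members of each list in each direction, and a fixed set of heart stress, rhythm and fibrosis genes; further genes named with their values known are marked, and some results are not reported here.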

Additional observations from a re-analysis of the deposited data

Results flagged for a closer look

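The change of mt-Rnr1 differed between the ventricles of the same mice by 0.76 on the log2 scale (right minus left, SE 0.15, edgeR interaction, adjusted p = 0.0208). All 3 nanoplastics mice were above all 3 controls in both ventricles.

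In the library of nanoplastics mouse 2, which entered no main comparison, mt-Rnr1 and mt-Rnr2 held 3.37% of counts (157 of 4662, Wilson 95% interval 2.89% to 3.93%), above the 2.29% to 2.36% of the control libraries. Its shares of all mitochondrially encoded genes (24.6%) and of ribosomal protein genes (4.25%) lay inside the control range, without a counting interval computed for them.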

How the results depend on the processing

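Against 68 genes called in the right ventricle, other settings gave 175 genes with DESeq2 (of 1381 with an adjusted p), 151 with library totals alone (9 higher, 142 lower), 41 without a count filter, 39 at a mean of at least 50 counts, 38 with all libraries thinned to equal depth, 39 with nanoplastics mouse 2 and 3 with all 21 libraries in the fit. It was 15 without mitochondrially encoded and ribosomal protein genes, a setting chosen after seeing the data, as was a second thinning draw with 62. Leaving out 1 library each gave 0 to 326 genes. In the left ventricle, 2 genes became 1 with library totals and 0 to 30 without 1 mouse each. For the interaction, 1 gene became 3 at a mean of at least 10 counts, 0 without the mouse as a block (edgeR; 135 at an unadjusted p under 0.05) and 0 to 10 without 1 mouse each. The causes were not tested.

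Equal replicate numbers name different mice across treatments, and same-numbered libraries did not deviate together (r = 0.02 for number 1 and -0.06 for number 3). With the replicate number as a block on numbers 1 and 3, 76 genes were called, 46 of them among the 68.

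None of the genes that reversed had passed the test. Nppb was at -0.046 with limma-voom, -0.27 with library totals, -0.074 without a filter, -0.062 at 50 counts, -0.027 thinned, -0.021 with mouse 2, -0.049 with all libraries, -0.20 without the length trend, and -0.34 to 0.28 without 1 library each. Pln was at -0.22 with library totals, -0.0285 without a filter, -0.11 with mouse 2, -0.12 with all libraries, and -0.12 to 0.19 without 1 library each. Without 1 library each, Atp2a2 ran from -0.0094 to 0.60 and Cacna1c from -0.44 to 0.063. With the replicate block, Cacna1c was at 0.073, Col3a1 at 0.018 and Cdkn1a at 0.13, and thinned Col3a1 was at 0.072. Over all named genes and settings, 634 values kept direction and side of the threshold, 333 lost the call, 7 gained it and 22 reversed. The 634 include named genes that were not called and stayed so, and only called genes could lose the call.

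Depth limits the reading of low genes: a single count is worth up to 2.47 CPM in the nanoplastics libraries, and genes under about 9.32 CPM were not tested.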
